A study of Drosophila melanogaster with 8 samples.

Results

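S2 is a cell line of Drosophila melanogaster with features of macrophage-like blood cells (hemocytes). The 2 arrays described here measured S2 cells that had received non-specific double-stranded RNA (dsRNA) through Cellfectin II and, 3 days later, a mock transfection, which the labels give as lipofectamine only, with lysis 24 hours after that. They are 2 of the 8 Affymetrix arrays of the series and were chosen by their titles (control cells, mock treated). The other 6 arrays hold the same cells in 3 further groups of 2: control cells given a dsDNA of 90 nucleotides, dSTING RNAi cells given a mock transfection, and dSTING RNAi cells given that dsDNA. The control mock cells are therefore not untouched S2 cells, since they carry an unrelated dsRNA and were transfected on both occasions. Each of the 11982 genes that the platform annotation names was represented by 1 probe set, the one with the highest mean over the 8 arrays, and intensities are as deposited, on a linear scale whose lowest value is 1.

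Hemocytes clear debris and microbes by phagocytosis, lay down basement membrane, store and move iron, and signal through the Imd and Toll pathways. The GATA factor srp is required for the blood cell fate in the fly, and the receptor crq, a CD36 relative, takes up apoptotic cells. A growing cell line also devotes much of its mRNA to ribosomes, protein folding and energy metabolism. Probe sets differ in how strongly they bind their targets, and the table carries no length correction, so the order of genes given below is an order of signals and not of transcript numbers.

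Sting, the gene that the RNAi of the series targeted, had intensities of 50.9 and 48.7 in the 2 control mock arrays, and the other 6 arrays follow their titles, with 3.45 to 8.05 in the 4 dSTING RNAi arrays, against 53.1 and 51.6 in control dsDNA cells. The 2 control mock arrays differed in how far they lay from the rest of the series. Among the 3436 genes at an intensity of 7 or more in both arrays, replicate 2 was above all 6 other arrays for 926 and below all of them for 757, while replicate 1 was above them for 576 and below for 112. The typical distance from the median of the other 6 was 1.11-fold for replicate 2 and 1.05-fold for replicate 1. Both arrays are therefore given beside each other throughout, and no test was made, since the description concerns 1 group. The genotype label of both control mock arrays matches their titles, while it goes against the titles in 4 of the other arrays. The labels do not say whether the 2 arrays came from separate cultures, and their number limits the precision.

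Most genes gave little signal in control mock cells. The median intensity over genes was 1.43 in replicate 1 and 1.44 in replicate 2, and 6574 of 11982 genes (54.9%) lay under 2 in both arrays. Exactly at the floor of 1 in both arrays were 957 genes (7.99%), and 3102 were there in at least 1 array. Above an intensity of 7, which is a log2(intensity + 1) of 3, lay 3436 genes in both arrays (28.7%), and 218 more in only 1 of them. Among named genes the bright end was narrow, with 416 at 100 or more in both arrays (3.47%) and 34 at 1000 or more. Left out of these counts and shares are probe sets with no gene name, of which 52 were at 1000 or more in both arrays. The 100 brightest genes held 39.9% of the summed intensity of all genes in replicate 1 and 39.5% in replicate 2.

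**Figure D1:**
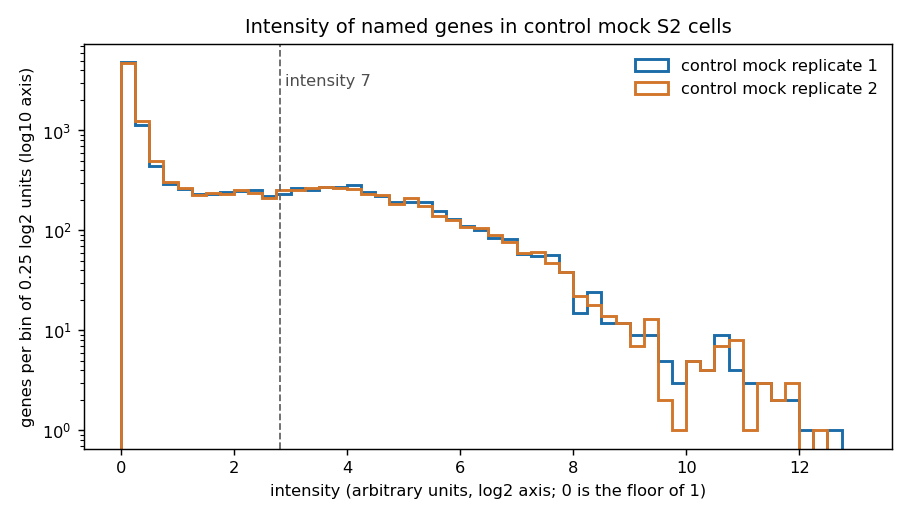
Number of named genes per bin of intensity (log2 axis, arbitrary units) in the 2 control mock arrays, with a log10 count axis and a dashed line at an intensity of 7. The arrays nearly coincide, with most genes piled up at and just above the floor and 3436 genes at or beyond the line in both.

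Genes at the floor stayed near it in the rest of the series. All 957 lay under 2 in each of the other 6 arrays, where the highest value of any of them was 1.70, yet only 74 were at exactly 1 in all 8 arrays. Of the 6574 genes under 2 in both control mock arrays, 6348 (96.6%) were also under 2 in all 6 other arrays and none was at 7 or more in any. At the other end, 3272 of the 3436 brighter genes were also at 7 or more in all 6 other arrays. The line at 7 falls in a continuous range: Cdk9, a kinase gene for transcription elongation, lay just inside with 7.01 and 7.48, and the P450 gene Cyp6d2 just outside with 6.998 and 7.47.

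Ribosomal protein genes dominated the brightest signals. They made up 25 of the 30 brightest named genes and 29 of the 100 brightest. Of the summed intensity of named genes they carried 21.5% in replicate 1 and 21.9% in replicate 2. RpL41 had 4471 and 4011, RpLP2, a stalk protein, 3678 and 3794, RpS7 3641 and 3458, and RpS28b 3128 and 3124. A second probe set of RpS7 read only 2.02 and 1.69. Of the 87 listed cytosolic ribosomal protein genes 34 were measured through a probe set with 1 gene. In both arrays 29 of those lay at 100 or more, beside 3.47% of all genes.

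The 5 genes among the 30 brightest that encode no ribosomal protein were CG5953, tsr, ImpL2, Arc1 and eEF5. CG5953, known by its number, ranked first with 5857 and 5251, against 5392 to 6131 in the other 6 arrays. Its second probe set, however, read only 10.3 and 10.9, so the rank belongs to 1 of 2 probe sets that disagree. tsr, the fly cofilin that severs actin filaments, had 2329 and 2262. ImpL2, a secreted protein that binds insulin-like peptides, had 2211 and 1917, below the 2079 to 2311 of the other 6 arrays in replicate 2. Arc1, which encodes a capsid-forming protein of retrotransposon origin, had 2088 and 1729, and its second probe set 345 and 326. eEF5, a translation factor, had 1653 and 1498.

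The order within the brightest genes was only partly resolved. Of the 29 neighbouring pairs in the ranking of the first 30, the array values of 20 overlapped. The 100 brightest genes of replicate 1 and of replicate 2 shared 94 names, and between 90 and 97 of the 100 were also among the 100 brightest in each of the other 6 arrays. Of the 30 leading probe sets, 15 carry the suffix _s_at and 2 the suffix _a_at, which in this array design mark probes that can match more than 1 transcript.

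**Figure D2:**
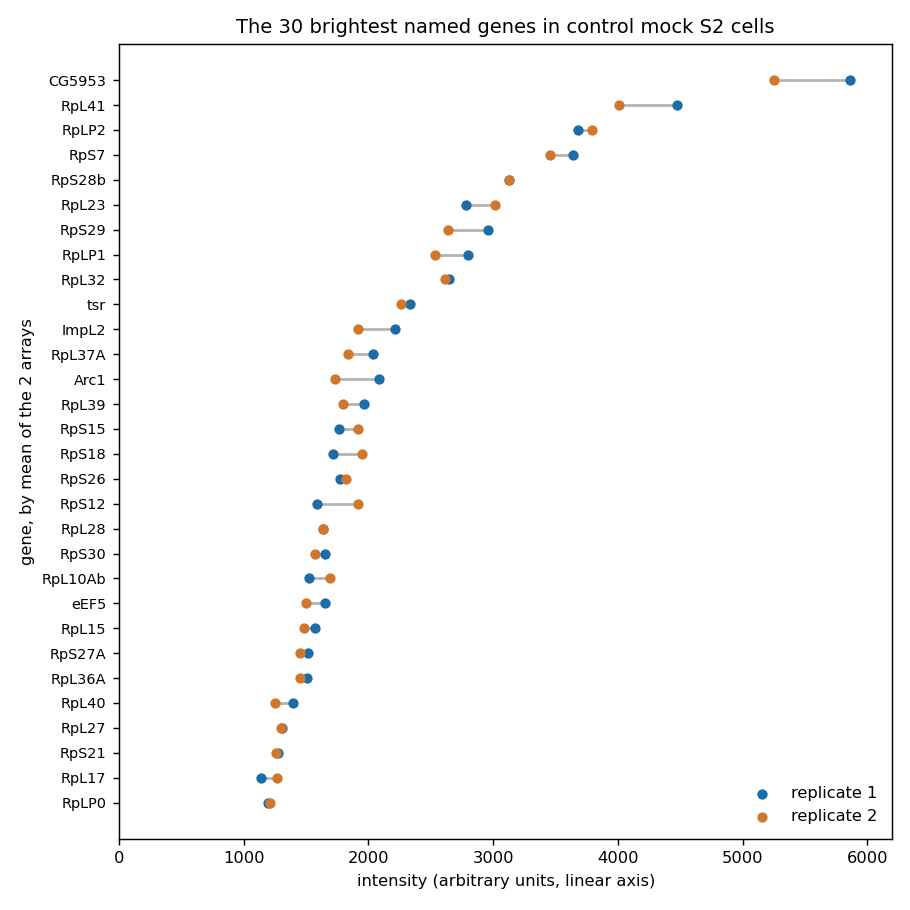
Intensity (linear axis, arbitrary units) of the 30 brightest named genes, each with a point for either control mock array joined by a line, ordered by the mean. CG5953 leads with 5857 and 5251, 25 of the 30 encode ribosomal proteins, and many neighbouring genes overlap.

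Translation, folding and energy genes followed the ribosome. Of 17 measured translation factors 16 were at 7 or more in both arrays, beside 28.7% of all genes. eEF1gamma, a subunit of the elongation factor complex, had 1077 and 1024, the helicase gene eIF4A 742 and 641, and pAbp, the poly(A)-binding protein, 603 and 538. The exception was eEF1alpha2, at 2.14 and 2.33. Of 21 chaperone genes 19 passed, led by the cytosolic Hsc70-4 with 965 and 762, the endoplasmic reticulum chaperone Hsc70-3 with 756 and 525, the mitochondrial Hsp60A with 391 and 429, and CCT7, a chaperonin subunit, with 393 and 344. The stress-inducible Hsp68 was at 1.48 and 1.74, and Pdi, a disulfide isomerase gene, at 1.05 and 1.16.

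All 9 measured glycolysis genes were at 7 or more in both arrays, beside 28.7% of all genes. Eno, the enolase gene, had 1226 and 1169, Tpi 496 and 534, Ald1 488 and 425, and Gapdh1 351 and 433. Of 24 genes for ATP synthase, respiratory subunits and carriers 22 passed and 21 were at 100 or more, beside 28.7% and 3.47% of all genes. sesB, the adenine nucleotide translocase, had 542 and 500, while Ant2, the other translocase gene, had 1.98 and 2.12. ATPsyngamma had 460 and 468, ATPsynF 349 and 308, and ATPsynO 309 and 328.

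The protein-degrading and acidic compartments were represented in full among the listed genes that were measured. All 25 proteasome genes of the list and all 18 lysosome and V-ATPase genes lay at 7 or more, beside 28.7% of all genes. Prosalpha6 had 220 and 253, Prosbeta6 156 and 181, Prosalpha4 157 and 169, and Prosbeta3 135 and 175. Lamp1, a lysosomal membrane protein, had 347 and 341, the protease gene CtsL1 338 and 287, the proton pump subunit Vha16-1 251 and 217, and cathD, another lysosomal protease, 200.4 and 200.1.

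Gene copies within these families lay at opposite ends of the range. Over all measured proteasome genes, the 26 with plain subunit names were each at 7 or more in both arrays, and the 14 whose names end in T or R, with or without a digit, were each under 2 in both. The T names mark testis copies and the R names related copies. Prosalpha6T and Rpn13R belong to the dim set. The V-ATPase family split in a similar way, with 15 of 31 genes at 7 or more and the other 16 under 2: Vha16-1 stood at 251 and 217, while Vha16-2 was at 1 and 1.02 and Vha14-2 at 1 in both arrays. Among cytosolic ribosomal protein genes RpS28b stood at 3128 and 3124 and its copy RpS28a at 1.74 and 1.42. This split was noticed after the values were seen, and copies of 1 gene can share probes.

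Of 18 measured cytoskeletal genes 10 were at 7 or more in both arrays, beside 28.7% of all genes. After tsr came Moe, which links actin to the membrane, with 748 and 631, the tubulin gene betaTub56D with 468 and 504, and chic, the fly profilin, with 431 and 360. betaTub85D, the testis tubulin, and alphaTub67C, the maternal one, were at 1 in both arrays. The flight muscle actin gene Act88F was at 1.07 and 1.27. Other tubulin genes broke any division by known use: betaTub60D, a tubulin gene of restricted expression in the fly, had 152 and 134, while alphaTub84D, a broadly used one, read 1.22 and 1.25 from its probe set.

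The 5 markers set for the hemocyte-like character of S2 cells were each at 7 or more in both arrays. In 4 of the 5 this rests on a probe set with the suffix _s_at or _a_at, the only one measured for that gene, and SPARC alone has a probe set without such a suffix. Fer1HCH, the ferritin heavy chain, had 585 and 469 (527 ± 81.6, SD, n = 2), against 514 to 672 in the other 6 arrays, and ranked 57th of all genes. Col4a1, a collagen IV chain, had 243 and 213 (228 ± 21.3, SD, n = 2). SPARC, a collagen-binding matrix protein, had 191 and 173 (182 ± 12.3, SD, n = 2). srp had 39.9 and 34.8 (37.4 ± 3.64, SD, n = 2), and crq 23.8 and 18.1 (21.0 ± 4.002, SD, n = 2). In replicate 2, Fer1HCH, srp and crq were each below the lowest of the other 6 arrays, which for srp was 39.2 and for crq 22.5. In bulk RNA a smaller share of cells with a transcript and less of it per cell cannot be told apart.

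Other hemocyte genes ranged from the floor to about 100. Without probe sets of those suffixes only 1 transcription factor of the lineage was at 7 or more, but genes with no other probe set then drop out. Of all 9 measured transcription factors of the lineage 4 were at 7 or more, beside 28.7% of all genes. These were zfh1, a zinc finger and homeodomain factor, with 104 and 82.3, srp, the signal transducer Stat92E with 34.2 and 23.0, and ush, a cofactor of srp, with 18.8 and 14.7. The other measured factors of the list were near 1, with lz (crystal cells) at 1.06 and 1.04, gcm at 1 and 1.14, and kn at 1 and 1.14. The 4 brighter factors were all lower in replicate 2, by a median of -0.35 on the log2 scale.

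Of 20 phagocytosis and scavenger receptor genes 6 (30%) were at 7 or more, a share close to the 28.7% of all genes. Without probe sets of those suffixes, which drops genes with no other, 2 were at 7 or more. Tep4, a thioester protein, had 79.5 and 85.4, Dscam1, an immunoglobulin receptor of many isoforms, 58.7 and 41.9, pes, a relative of crq, 37.2 and 35.6, and crq followed. A second probe set of Dscam1 read only 1.07 and 1. The engulfment receptor drpr had 15.7 and 11.6, and NimC1, a Nimrod receptor of plasmatocytes, 11.1 and 12.9. The receptors Sr-CI, eater and NimC4 were at the floor in both arrays. Of 11 lineage markers only mys, a beta integrin, passed, with 60.6 and 57.4. PPO3, a prophenoloxidase gene, lay just under the line with 6.70 and 6.94, Hml, the hemolectin gene, had 2.22 and 3.99, the Nimrod gene NimB5 of the receptor list 6.20 and 4.77, and He, PPO1, PPO2, atilla and Pxn were each under 2. The preset markers srp, crq, Fer1HCH, Col4a1 and SPARC were therefore above 7, but the hemocyte lists were mixed. In both arrays, 4 of 9 lineage transcription factors, 6 of 20 phagocytosis genes and 1 of 11 lineage markers were at 7 or more. Those below included lz, gcm, kn, Sr-CI, eater, NimC4, Hml, He, PPO1, PPO2, atilla and Pxn.

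Of 17 measured basement membrane genes 10 (58.8%) were at 7 or more in both arrays, beside 28.7% of all genes. At 100 or more in both arrays were 5, beside 3.47% of all genes. PH4alphaEFB, which hydroxylates collagen, had 248 and 249.5, then Col4a1, LanA, a laminin chain, with 208 and 177, and SPARC. vkg, the second collagen IV chain, had 109.9 and 110.1, LanB2 129 and 97.9, and LanB1 77.1 and 66.7. Other matrix genes were dim, with the perlecan gene trol at 1.39 and 1.46, Ndg at 1.11 and 1.199, and the laminin alpha gene wb at 1.28 and 1.06.

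Of 13 genes of iron handling 6 were at 7 or more, beside 28.7% of all genes. After Fer1HCH came Zip99C, an iron transporter of the secretory pathway, with 23.6 and 19.2, mfrn, which carries iron into mitochondria, with 20.3 and 17.1, and fh, the frataxin gene, with 16.7 and 16.3. Fer2LCH, whose product pairs with Fer1HCH in fly ferritin, read only 2.27 and 1.99 from its 1 probe set. The transferrin gene Tsf1 was at 1.14 and 1.48.

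Of 8 measured immune recognition genes 4 were at 7 or more, beside 28.7% of all genes: GNBP3, a glucan sensor, with 38.005 and 36.5, GNBP2 with 28.3 and 29.7, PGRP-LA with 11.6 and 12.95, and PGRP-LF, an inhibitor of Imd signalling, with 7.81 and 7.28. Of 18 genes of Imd and Toll signalling 8 passed, led by spz, the Toll ligand, with 89.0 and 76.9, Diap2, a ubiquitin ligase, with 47.3 and 57.7, key, the IKK gamma subunit, with 42.1 and 42.9, and Rel, the NF-kappaB factor of the Imd pathway, with 32.4 and 28.5. The adaptor gene imd itself had 3.42 and 3.25. Of 14 listed antimicrobial peptide genes 6 were measured, and none of these reached 7: Drs had 2.47 and 3.76, DptB 1.62 and 1.70, CecB 1.56 and 1.57, and Def 1.31 and 1.44. In the RNA interference machinery, on which the dsRNA treatment relies, 2 of 10 measured genes (20%) were at 7 or more. AGO1, AGO2 and Dcr-1 of that list were not measured. Dcr-2, which cuts long dsRNA, had 24.7 and 20.8, its partner r2d2 5.43 and 4.67, gw, a microRNA silencing factor, 47.6 and 42.7, and drosha 4.38 and 4.63. The piRNA genes piwi, aub and AGO3 were each under 2.

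Among 17 cell surface and nuclear receptors 7 were at 7 or more, beside 28.7% of all genes. Pvr, the receptor for PDGF- and VEGF-like factors, had 124 and 96.8, and dome, the JAK/STAT receptor, 20.6 and 19.4. Of the TGF-beta family receptors, sax had 34.1 and 28.5, and put 28.4 and 22.1. All 7 were lower in replicate 2, by a median of -0.26 on the log2 scale, as were 1938 of all 3436 genes at 7 or more. Of the 3 Pvr ligands, looked up after the receptor's value was seen, Pvf2 had 307 and 241, Pvf3 5.83 and 5.47, and Pvf1 1.14 and 1.001. Egfr was at 1 and 1.11, and Alk and wit were at the floor in both arrays.

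The dosage compensation complex raises X-linked transcription in male flies, and in females Sxl blocks the translation of msl-2, so that the complex does not form. Of 10 measured genes of this list 4 lay at 7 or more, beside 28.7% of all genes, and 3 after quantile normalization. These 4 were mof, the acetyltransferase of the complex, with 19.48 and 19.51, tra2, a splicing factor, with 17.5 and 18.97, Sxl with 11.46 and 11.50, and msl-2 with 7.02 and 7.65. Further probe sets of Sxl read 9.95 and 9.88, and 1.006 and 1. The other measured genes of the complex were under 7: msl-1 with 2.58 and 2.31, msl-3 with 5.53 and 6.36, and mle with 5.56 and 4.35. All 7 measured Y-linked genes, known for expression in the male germ line, were under 2, beside 54.9% of all genes. Their highest value was 1.17 for kl-2.

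Of 17 measured cell cycle genes 12 were at 7 or more in both arrays, beside 28.7% of all genes. PCNA, the replication clamp, had 98.3 and 102, RnrL, a ribonucleotide reductase subunit, 76.8 and 69.2, the helicase subunit Mcm6 42.5 and 37.3, and the mitotic cyclin CycB 38.8 and 38.4. CycE had 5.74 and 5.58, and Cdk2 1.66 and 1.08. Of 13 detoxification and antioxidant genes 10 passed, led by GstD1 with 657 and 544, GstE6 with 484 and 454, the thioredoxin gene Trx2 with 321 and 396, and the peroxidase gene Gtpx with 327 and 357.

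**Figure D3:**
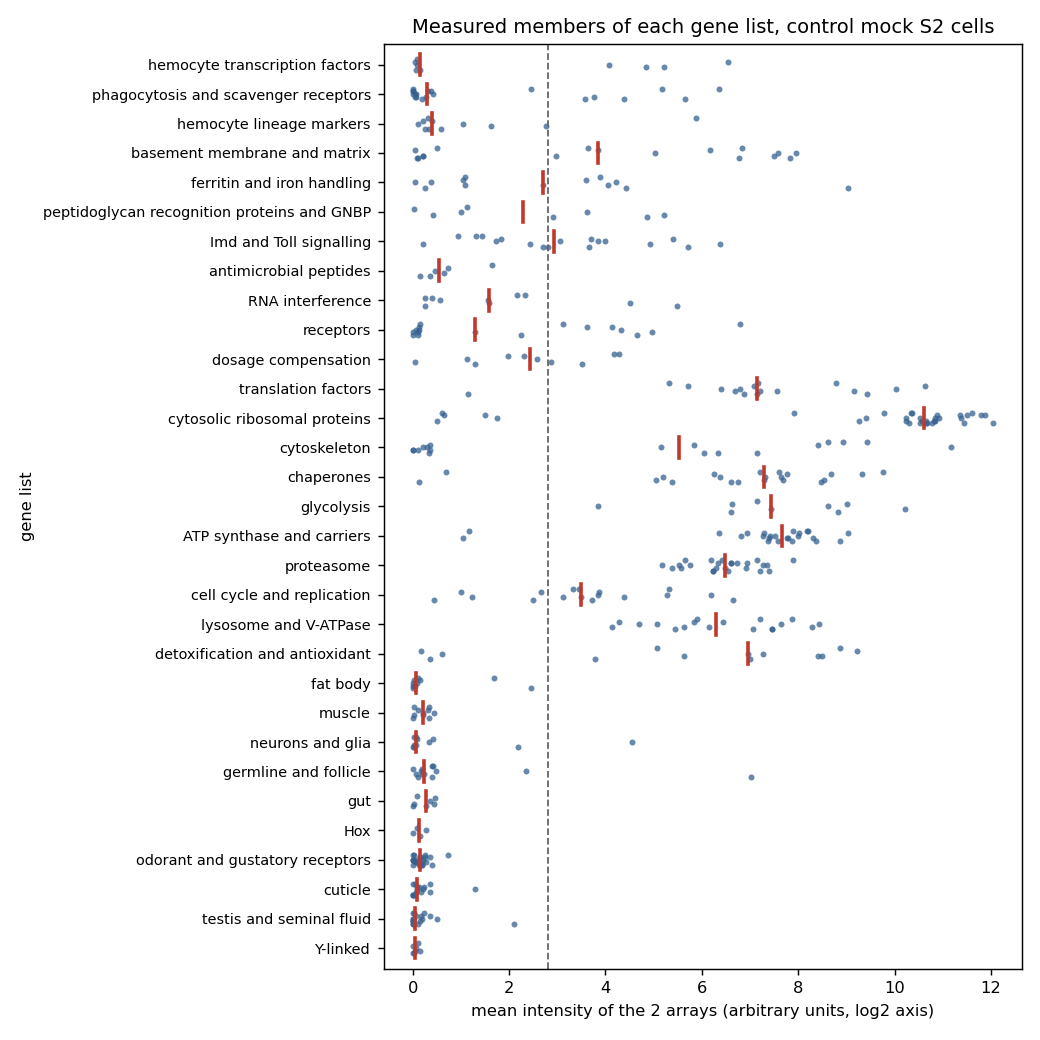
Mean intensity of the 2 control mock arrays (log2 axis, arbitrary units) for each measured member of the 31 gene lists, with a red bar at the list's median and a dashed line at an intensity of 7. Ribosomal, translation, chaperone and metabolic lists lie mostly to the right of the line, and the lists of other tissues crowd at the floor. Most hemocyte and immune lists span both sides, but the antimicrobial peptides lie wholly to the left and the hemocyte lineage markers have only mys to the right.

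Markers of cell types that the culture should not hold were mostly at or near the floor. Over fat body, muscle, neurons and glia, germline and follicle, and gut, 51 markers were measured. In both arrays 45 were under 2, beside 54.9% of all genes. At 7 or more were 2, beside 28.7% of all genes. The first was tud, a Tudor domain gene of the germ plasm, with 129 and 132. The second was moody, a receptor of the glial blood-brain barrier, with 27.9 and 19.2. Below the line lay Apoltp with 5.96 and 4.98, zpg, a germline gap junction gene, with 4.84 and 5.40, elav, the neuronal RNA-binding protein gene, with 4.83 and 4.24, and Mtp with 3.34 and 3.09. The defining germline gene vas had 1.04 and 1.07, the glial factor repo 1.04 and 1, and the muscle gene Tm2 was at 1 in both arrays. The 4 measured Hox genes were each under 2, beside 54.9% of all genes, the highest being Scr with 1.0996 and 1.32.

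Of the 31 families, 13 had no member at 7 or more, among them sensory, cuticle and reproductive genes, the Jonah proteases and the Methuselah-like receptors. They held 418 measured genes, of which 402 were under 2 in both arrays, beside 54.9% of all genes. Having no brighter member is how these 13 were picked out. All 56 odorant receptors were under 2, the brightest being Or67a with 1.53 and 1.37, as were 55 of 56 gustatory receptors and 51 of 53 ionotropic receptors. Of 66 Cpr cuticle genes 63 were under 2, and Cpr49Ac, the brightest, had 5.16 and 5.54. The families with the highest shares at 7 or more were the 8 CCT chaperonin genes and 7 genes of small nuclear ribonucleoproteins, all of which passed, 68 of 69 mitochondrial ribosomal protein genes and 17 of 20 nucleoporins. Other machinery was lower, with 25 of 32 complex I genes, 13 of 22 mediator genes, 15 of 31 V-ATPase genes and 6 of 17 Rab GTPase genes. The share over all genes was 28.7%. The mitochondrial ribosomal protein genes had a median of 28.8 and a maximum in mRpL28, with 94.4 and 101, while the cytosolic ones had a median of 1322. Families were formed by gene symbol after the values had been seen.

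**Figure D4:**
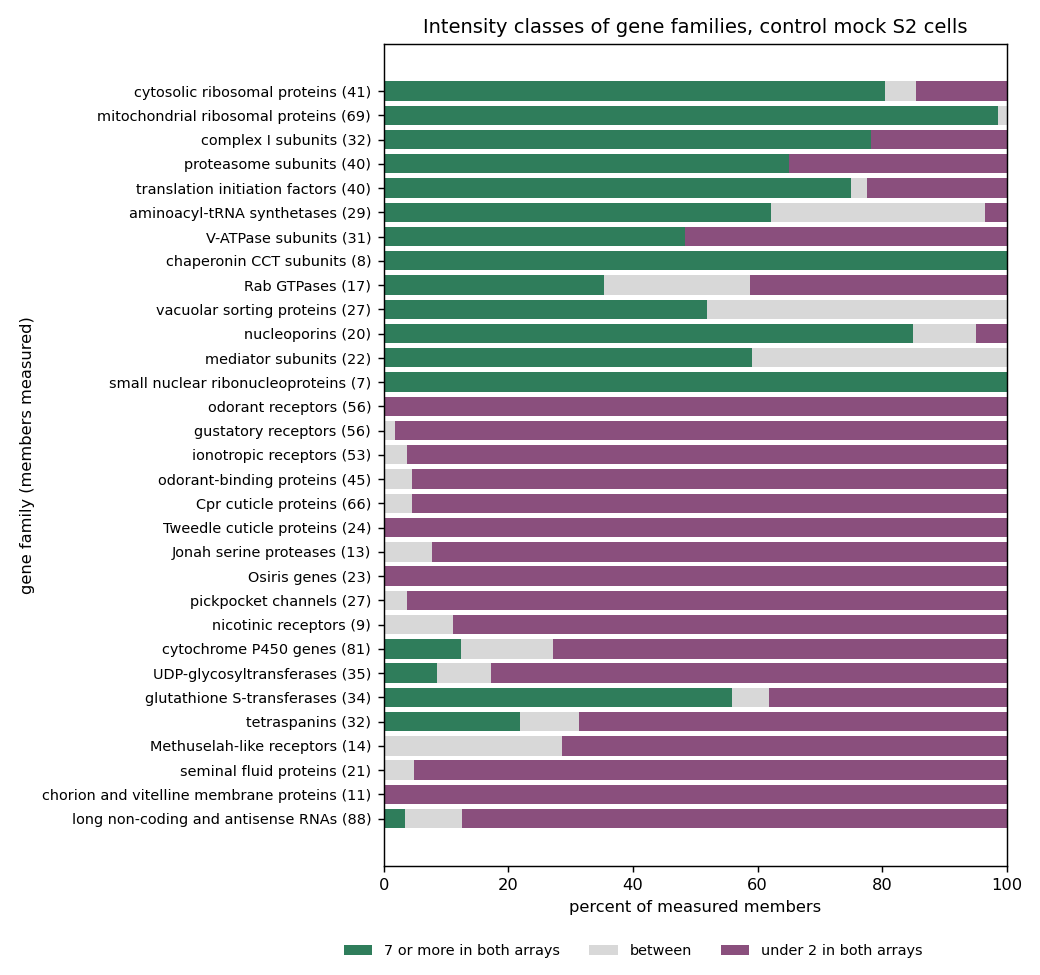
Share of the measured members of 31 gene families (number measured in brackets) at 7 or more in both control mock arrays, under 2 in both, or between. Mitochondrial ribosomal proteins and CCT chaperonin lie almost wholly in the first class, V-ATPase and Rab genes are divided, and odorant receptors, Tweedle, Osiris and eggshell genes have every member in the second.

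Non-coding transcripts were rarely bright. Of 88 measured long non-coding and antisense RNA genes 77 were under 2 and 3 were at 7 or more, beside 54.9% and 28.7% of all genes. The 3 were lncRNA:CR32368 with 67.4 and 67.8, lncRNA:CR42862 with 32.2 and 24.7, and lncRNA:alphagamma-element:CR32865 with 16.6 and 17.2. Genes known only by a CG or CR number were less often bright than the rest, 937 of 5219 (17.95%) against 37.0% of the other named genes. The brightest after CG5953 were CG15098 with 754 and 683, CG2852 with 703 and 684, CG5399 with 561 and 395, and CG14273 with 419 and 508.

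The 2 arrays agreed closely for bright genes. Over the 3436 genes at 7 or more, replicate 2 over replicate 1 had a median log2 ratio of -0.03, the typical gene differed by 1.11-fold and 95% of genes by less than 1.39-fold. Agreement was closer at the bright end, with a typical difference of 1.06-fold over the genes at 1000 or more and of 1.12-fold between 7 and 20. Across genes, which are not independent replicates, Pearson's r of log2 intensities was 0.988. In 5 genes the arrays differed by 2-fold or more. MFS14, a transporter gene, had 28.8 and 11.3, CG3348 182 and 87.0, CG9416 22.3 and 10.8, and the kinase gene msn 16.8 and 8.38, while CBP had 13.4 and 29.9. In all 5 replicate 2 lay outside the range of the other 6 arrays, for MFS14 below their lowest value of 20.8 and for CBP above their highest of 20.79. Over all 3436 genes 1498 were higher and 1938 lower in replicate 2. The 7 receptors and 4 lineage factors read lower there, 19 of 25 proteasome genes read higher, and the part of that array in these differences was not tested.

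**Figure D5:**
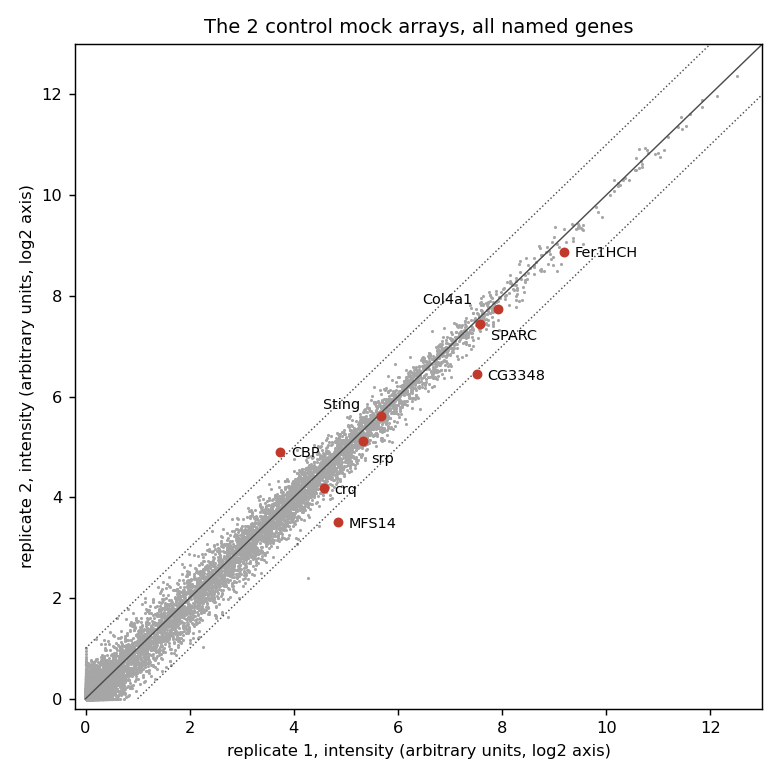
Intensity of every named gene in control mock replicate 2 against replicate 1 (log2 axes, arbitrary units), with a line of equality and dotted lines at a 2-fold difference. The 5 hemocyte markers and Sting lie near equality, while MFS14, CG3348 and CBP lie at or beyond the dotted lines.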

How the data were processed

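The authors deposited 1 table of linear intensity values, with a column for each array. Per the labels' protocols, biotin-labelled total RNA was made with a 3' IVT kit. No source used here names the software, background correction, normalization or genome build. No value lies under 1, and 23.1% and 21.2% of the values of the 2 control mock arrays are exactly 1. Of 18952 probe sets, 183 controls were left out. Platform annotation, updated by gene identifier to the Release 6 plus ISO1 MT assembly, gave 13647 probe sets 1 gene (13544 matched), 402 several and 4720 none. Of the 11982 genes, 10888 had 1 probe set. Groups follow the titles. Intensities were used as deposited, with a line at 7 (log2(intensity + 1) of 3), in Python 3.11.15 with pandas 2.3.3, and functions were tested on simulated data. Genes set for naming were the 30 brightest, the 5 markers and the 4 brightest of each of 31 lists. Also set were brighter members of other tissues' lists, the 5 largest differences between the arrays and the 5 brightest with a CG number only. The text leaves out some of these, such as several ribosomal protein genes and members of dim lists. Genes outside this set were named after their values were seen. Members and lists were chosen with earlier results of these data known. Alternatives were other probe set rules, quantile normalization, other lines and each array alone. Features by chromosome, protein or promoter were not analysed here.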

Additional observations from a re-analysis of the deposited data

How the results depend on the processing

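No paired analysis was possible because no groups were compared. The count of genes at 7 or more (3436) was 3218 with the median probe set per gene, 3155 over genes with 1 probe set, 2446 without probe sets of the suffixes _s_at, _x_at and _a_at, 3432 after quantile normalization, 4584 with the line at 3 and 2286 with the line at 15. In 1 array alone it was 3521 to 3569. The count at the floor (957) was 1926 to 2133 in 1 array alone, since a gene then needs to be at 1 only once, and 2606 with the floor set at 1.1. Of the 100 brightest genes 96 to 97 stayed with 1 array, 100 after quantile normalization and 48 without those suffixes, which removes the leading probe set of many of them. The counts of members per list were within 1.5 times for all 31 lists with either array alone, with quantile normalization and with the median probe set. Beyond that range moved 16 lists without the suffixes, 1 over genes with 1 probe set, 8 with the line at 3 and 4 with the line at 15. Signals under 2 carry no usable order, and a dim gene is dim only for its probe set.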

Other observations

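Detoxification families differed in how many members gave signal. Of 34 glutathione S-transferase genes 19 were at 7 or more in both arrays, led by GstE9 with 706 and 653, whereas 10 of 81 cytochrome P450 genes and 3 of 35 UDP-glycosyltransferase genes were. The share over all genes was 28.7%. The brightest of these were Cyp9c1 with 173 and 201 and Ugt302C1 with 212 and 231. Of 32 tetraspanin genes 7 (21.9%) were at 7 or more, a share under that of all genes. Of the 16 measured members of the Tsp42E cluster 5 were, close to the share of all genes, with Tsp42Ee at 321 and 237.

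Neighbouring genes were more often bright together. Of 8840 pairs of genes next to each other in the Release 6 plus ISO1 MT annotation with both measured, 1162 had both members at 7 or more, and 44.1% of the neighbours of a bright gene were bright, beside 29.8% of all genes in these pairs. This is a description, and overlapping genes can share probes.

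Probe sets without a single named gene held bright signals that the ranking leaves out. Of 4720 probe sets with no gene name here, 452 were at 7 or more and 52 at 1000 or more in both arrays, more than the 34 named genes at that level, and the brightest averaged 3954. The lists of brightest genes are therefore incomplete. Among genes at 7 or more with several probe sets, 281 in number, the dimmest probe set was under 7 in 238 (84.7%) and under 2 in 189 (67.3%). The largest difference between the 2 arrays over all genes with 7 or more in either belonged to NaPi-III, a phosphate transporter gene, with 19.4 and 5.28, against 11.7 to 30.2 in the other 6 arrays.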
